A study of Homo sapiens with 6 samples.

Results

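A row of the expression table used here stands for a transcript cluster, a set of array probes for one transcribed stretch of the genome, and 1119 of the 135750 rows carried more than 1 gene symbol in the platform annotation. These rows were taken by that annotation alone, not by their signals, although earlier results of these data were known when they were chosen. Their values cannot be given to one gene. Of them, 908 carried 2 symbols, 141 carried 3 and 70 carried 4 or more, up to 20. Another 36176 rows carried exactly 1 symbol, and 98455 carried none. The cells were the cultured human line MHH-cALL4, an acute leukaemia of B-cell precursors whose subtype is called Philadelphia chromosome-like. The tested cells received 1 µM ruxolitinib, which blocks the kinases JAK1 and JAK2, and the control cells received the vehicle DMSO, both for 12 h, with 3 arrays in each group. All arrays thus come from 1 line, and no genotype differs between the groups. MHH-cALL5 stands in the titles of the 3 ruxolitinib arrays, but their cell line field, followed here, reads MHH-cALL4.

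Several symbols fall on one row for different biological reasons. Many small RNAs are cut from a longer host transcript: microRNAs (miRNAs), which silence messages through a short seed, and small nucleolar RNAs (snoRNAs), which guide chemical modification of ribosomal RNA, often lie in introns or exons of a host gene. A readthrough transcript runs from one gene into its neighbour and shares exons with both, and recent gene duplicates are too alike for probes to separate. JAK2 signals in these cells through STAT factors, and MYC, which drives ribosome production, is a well-known gene downstream of that pathway in lymphoid leukaemia.

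By their symbols and RefSeq biotypes, 354 rows joined a small RNA to a longer gene and are called host rows here. Another 57 held a readthrough gene, 322 held members of a duplicated family and 117 held only small RNAs. A symbol with an antisense, intronic, overlapping or divergent suffix was on 32, and 237 were other pairs. Of those 32 rows, chosen by the suffix alone, 15 held genes whose spans overlapped. The family class rests on similar names, so it also takes in neighbours such as the mitochondrial ATP8, ATP6 and COX3. RefSeq matched 2575 of the 2665 symbols on these rows. The host rows held 479 small RNAs, and 422 of the 478 that could be placed lay within the span of another gene on the row. In the readthrough class the genes' spans overlapped on 56 of 57 rows, and in the duplicated class 262 of 322 rows held genes of one chromosome whose spans did not overlap.

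The sequences that matter most for reading the results are those of the small RNAs and start regions on the changed rows. All are RefSeq sequences on the plus strand of GRCh38.p14. The row with the largest change joins TNFRSF1B, the gene of tumour necrosis factor receptor 2, to MIR4632 and MIR7846, and a row treated below joins MYLIP, the gene of a ubiquitin ligase for the LDL receptor, to MIR4639. Their mature miRNAs are shown 5′ to 3′ with the seed, bases 2 to 8, in capitals. They lie at chr1:12191713-12191735, chr1:12191752-12191773, chr1:12167010-12167030, chr6:16141556-16141577 and chr6:16141603-16141622, and no seed is shared among them.
hsa-miR-4632-5p: gAGGGCAGcguggguguggcgga
hsa-miR-4632-3p: uGCCGCCCucucgcugcucuag
hsa-miR-7846-3p: cAGCGGAGccuggagagaagg
hsa-miR-4639-5p: uUGCUAAGuaggcugagauuga
hsa-miR-4639-3p: uCACUCUCaccuugcuuugc

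The next windows run from 250 bases before to 50 bases after a gene's start. That of TNFRSF1B, chr1:12166741-12167040, holds the whole 96-base MIR7846 hairpin, which is in capitals and runs from base -48 to base 48 around the start (the first transcribed base is 1), so the hairpin spans the start of the receptor gene, and the mature miRNA lies after it.
TNFRSF1B: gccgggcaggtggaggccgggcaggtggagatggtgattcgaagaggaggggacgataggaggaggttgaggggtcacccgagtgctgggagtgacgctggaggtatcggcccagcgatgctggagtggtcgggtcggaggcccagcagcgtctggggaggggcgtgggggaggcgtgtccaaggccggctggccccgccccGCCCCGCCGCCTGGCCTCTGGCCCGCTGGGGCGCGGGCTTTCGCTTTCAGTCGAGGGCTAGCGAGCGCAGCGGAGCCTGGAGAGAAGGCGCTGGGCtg
PPAN, NME1 and WDR43 come from rows of the ribosome production genes described below, at chr19:10105973-10106272 (the first of the PPAN starts listed), chr17:51153309-51153608 and chr2:28894417-28894716. Capitals mark CACGTG, the E-box that MYC with MAX is known to bind.
PPAN: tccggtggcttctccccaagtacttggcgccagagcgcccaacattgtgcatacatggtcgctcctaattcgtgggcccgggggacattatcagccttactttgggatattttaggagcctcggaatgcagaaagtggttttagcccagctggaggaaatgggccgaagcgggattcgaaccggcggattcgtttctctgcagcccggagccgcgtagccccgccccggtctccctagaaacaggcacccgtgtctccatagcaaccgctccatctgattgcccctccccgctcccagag
NME1: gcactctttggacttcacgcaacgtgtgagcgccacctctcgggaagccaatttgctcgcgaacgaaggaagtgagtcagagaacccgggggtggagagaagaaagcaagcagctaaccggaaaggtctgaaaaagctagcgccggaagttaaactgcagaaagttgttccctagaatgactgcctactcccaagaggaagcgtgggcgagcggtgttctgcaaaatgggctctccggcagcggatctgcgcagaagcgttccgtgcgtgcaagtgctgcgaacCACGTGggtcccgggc
WDR43: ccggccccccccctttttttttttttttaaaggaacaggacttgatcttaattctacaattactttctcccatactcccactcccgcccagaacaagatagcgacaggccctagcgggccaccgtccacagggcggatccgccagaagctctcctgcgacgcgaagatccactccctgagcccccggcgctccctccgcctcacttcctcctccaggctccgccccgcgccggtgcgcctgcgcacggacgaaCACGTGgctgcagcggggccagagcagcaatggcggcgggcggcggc
NME1 and the readthrough NME1-NME2 have the same window, in which the E-box begins at base 35, and in WDR43 it begins at base 4. CACGTG was in neither of the PPAN windows, nor in those of TNFRSF1B, P2RY11, NME2, SNHG16 and MYLIP, and TTCNNNGAA, the letters of STAT motifs, was in none of the windows of these 8 genes or of NME1-NME2. Both motifs read the same on either strand. CACGTG was in 7.26% and TTCNNNGAA in 7.66% of all 35116 RefSeq windows of this length, so these matches are only a description.

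Values are log2 signals, and 1 unit is a factor of 2. Correlations over all rows were 0.98 to 0.988 within the groups and 0.978 to 0.988 between them, and array medians were 4.51 to 4.59. The array weights of limma were lowest for ruxolitinib replicate 3, at 0.742, and DMSO replicate 1, at 0.794. They were highest for DMSO replicate 2, at 1.43. Some fits below leave out ruxolitinib replicate 3 and DMSO replicate 1 together. The 9 markers of B-cell precursors had signals of 11.7 to 19.6 with ruxolitinib and 11.8 to 19.5 with DMSO. Markers of T cells, natural killer cells, myeloid cells, red cells and megakaryocytes stayed between 3.19 and 7.58 with ruxolitinib and between 3.27 and 7.61 with DMSO, and 0 of the markers of these or of B-cell precursors passed the test. In bulk samples such as these, fewer cells of a type and less RNA per cell cannot be told apart.

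Ruxolitinib was followed by a fall on 2 of the 1119 rows with several symbols and a rise on 0 (limma, Benjamini-Hochberg adjusted p under 0.05 over all 135750 rows). One was the host row of TNFRSF1B and the other the readthrough row of PPAN and P2RY11. Of all rows in the table, 104 passed, which is 0.0766% of it, and 98 of these, 0.0722%, fell. Among rows with several symbols the share was 0.179%, and among rows with exactly 1 symbol 78 rows, or 0.216%, passed. An unadjusted p under 0.05 was found on 80 lower and 29 higher rows with several symbols. Over all 135750 rows it was found on 4176 lower and 3787 higher rows. Over the 36176 rows with exactly 1 symbol it was found on 2243 lower and 851 higher rows.

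The TNFRSF1B row had signals of 8.18, 8.3 and 8.08 on the ruxolitinib arrays, against 13.09, 12.93 and 12.89 on the DMSO arrays. The groups lay far apart, and the arrays within each differed by little. The means were 8.19 ± 0.11 with ruxolitinib and 12.97 ± 0.1 with DMSO (SD, n = 3 each), a log2 change of -4.78 ± 0.16 (SE), or 27.5-fold lower, with an adjusted p of 3.13e-05 (limma). Its 95% interval was -5.15 to -4.41. This was rank 5 among the falls of all rows, and only 3 rows with exactly 1 symbol had a change as low or lower. The test was passed in all 6 fits that left out 1 array, with changes of -4.84 to -4.72. TNFRSF1B, MIR4632 and MIR7846 had no row of their own, so the table gives no other measure of the receptor gene or of either miRNA.

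The other called row carried PPAN, a nucleolar protein of large ribosomal subunit assembly, P2RY11, a receptor for extracellular ATP, and their readthrough PPAN-P2RY11. Its signals were 6.91, 6.81 and 6.76 with ruxolitinib, against 8.17, 8.78 and 8.57 with DMSO. All ruxolitinib arrays were below all DMSO arrays, and DMSO replicate 1 was the closest to them. The log2 change was -1.68 ± 0.19 (SE, n = 3 each), or 3.2-fold lower, with an adjusted p of 0.0294 (limma). The call rested on all arrays together: it was kept in 1 of the 6 fits that left out an array, that without DMSO replicate 1 (adjusted p 0.0466), and the others gave 0.104 to 0.204, with changes of -1.85 to -1.54 over the 6 (limma). It was also lost with a spread that follows the signal level (adjusted p 0.0552), after quantile normalization (0.0682), without both DMSO replicate 1 and ruxolitinib replicate 3 (0.0882), with the replicate number as a block (0.36) and without moderation of the spread (0.461), all in limma. None of the 3 symbols had a row of its own, so the signal cannot be divided between PPAN, P2RY11 and the joined transcript.

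Another 4 rows passed only where fewer rows were tested together, and each missed the threshold over the whole table. Adjusting over the 37295 rows with a symbol, 220 rows, or 0.59%, passed, and 6 of them carried several symbols. Adjusting over the 1119 rows alone also gave 6, or 0.536%. The 4 added rows are those of NME1, SNHG16, MYLIP and BOP1, which are given as values.

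NME1 and NME2 are neighbouring nucleoside diphosphate kinases, known MYC targets, joined by the readthrough NME1-NME2. Their row had 12.23, 12.04 and 11.78 with ruxolitinib, against 13.14, 13.34 and 13.24 with DMSO, a log2 difference of -1.22 ± 0.18 (SE, adjusted p 0.079, limma). The groups did not overlap, and ruxolitinib replicate 3 was the lowest. SNHG16 is a long noncoding RNA that hosts the snoRNAs SNORD1A and SNORD1C. Its row had 11.28, 10.59 and 10.56 with ruxolitinib, against 12.3, 12.22 and 12.38 with DMSO, a log2 difference of -1.49 ± 0.22 (SE, adjusted p 0.0819, limma). Again the groups were apart, with ruxolitinib replicate 1 nearest to DMSO.

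The row of MYLIP and MIR4639 had 10.09, 10.35 and 10.18 with ruxolitinib, against 11.33, 11.38 and 11.15 with DMSO, a log2 difference of -1.08 ± 0.17 (SE, adjusted p 0.0908, limma). BOP1, a partner of PES1 and WDR12 in processing of ribosomal RNA, shared a row with MIR7112. That row had 9.32, 8.67 and 8.93 with ruxolitinib, against 10.18, 10.14 and 10.35 with DMSO, a log2 difference of -1.25 ± 0.2 (SE, adjusted p 0.109, limma). On both rows every ruxolitinib array was below every DMSO array. None of these 4 rows passed the test in any of the 6 fits that left out an array.

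**Figure D1:**
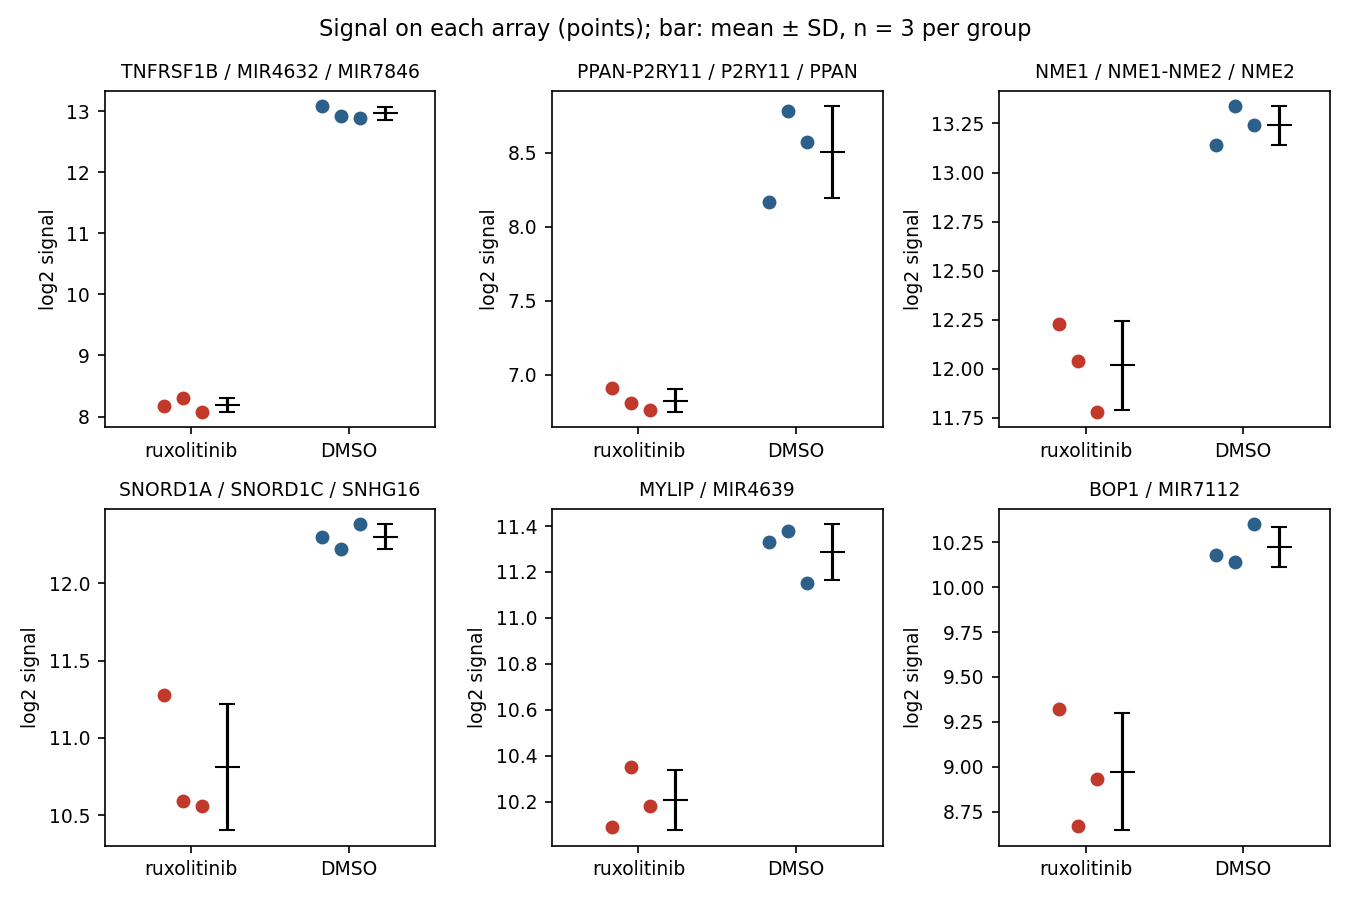
Log2 signal (vertical axis, its range set for each panel) on the 3 ruxolitinib and 3 DMSO arrays for the 6 rows with several symbols that passed at least when adjusted over rows with a symbol; points are arrays, and the bar beside them is the mean ± SD (n = 3). The TNFRSF1B row stands at 8.08 to 8.3 with ruxolitinib and 12.89 to 13.09 with DMSO, and in no panel do the groups overlap.

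Differences of at least 1 log2 unit were found on 16 rows, all lower with ruxolitinib, and 15 of these had no overlap between the groups. That is 1.43% of the rows with several symbols, against 0.455% of all rows, of which 618 were lower and 145 higher by as much. All rows were dimmer, with a median signal of 4.54 against 6.24, and the effect of level on these shares was not tested. The remaining rows among the 16 did not pass the test and are named here because of their values. Among them WDR43, a protein of small ribosomal subunit assembly that hosts SNORD53, had 12.39, 11.9 and 12.38 with ruxolitinib, against 13.26, 13.63 and 13.26 with DMSO (log2 difference -1.16, adjusted p 0.153, limma). HM13, the signal peptide peptidase whose intron holds the retrogene MCTS2, had 9.82, 9.54 and 9.19 with ruxolitinib, against 10.9, 10.59 and 10.53 with DMSO (log2 difference -1.16, adjusted p 0.175, limma). Both rows were apart between the groups.

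MXD4, a partner of MAX that competes with MYC, shared a row with MIR4800 at 9.91, 10.02 and 9.43 with ruxolitinib, against 11.17, 10.66 and 10.77 with DMSO (log2 difference -1.08). GATAD2A, a subunit of the NuRD chromatin complex, shared one with MIR640 at 9.15, 8.88 and 8.96 with ruxolitinib, against 10.48, 9.9 and 9.82 with DMSO (log2 difference -1.07). Neither joined row overlapped between the groups. The brightest rows that carry MXD4 and GATAD2A alone were dimmer, with mean signals of 3.24 and 5.62. They differed by 0.12 and -0.31. Signals this low cannot be told from background, so these rows cannot show whether the fall of the joined rows was shared. The rows of USP32P2 with FAM106A and CCDC144BP, of HSP90B1 with MIR3652, of BOLA2 with BOLA2B, of FKBP11 with ARF3 and of C11orf98 with LBHD1 had log2 differences of -1.22 to -1.04 without overlap. That of TBRG4 with SNORA5B had -1.04, and there DMSO replicate 1, at 10.46, lay below ruxolitinib replicate 1, at 10.52.

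No row was higher by 1 log2 unit. The highest difference was on the row of TIMP2, an inhibitor of matrix metalloproteinases, with CEP295NL, whose span overlaps it. It had 12.36, 12.73 and 12.98 with ruxolitinib, against 11.99, 11.49 and 11.61 with DMSO, a log2 difference of 0.99 ± 0.22 (SE, adjusted p 0.315, limma). After it came the rows of MIR5195 with IGHV5-78 (0.96) and of TMEM107 with SNORD118 (0.93), the snoRNA that takes part in ribosomal RNA processing. These 3 did not overlap between the groups, and that of TRIOBP with NOL12 (0.91) did.

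Host rows made up most of the low rows. All 3 ruxolitinib arrays were below all 3 DMSO arrays on 123 of the 1119 rows, 11% of them. The whole table had 5.06%, and rows with exactly 1 symbol had 8.96%. All ruxolitinib arrays were above on 63 rows, or 5.63%, where the table had 6.11% and rows with exactly 1 symbol had 5.1%. Of the 123, 67 were host rows, 18.9% of that class, and 15 host rows, 4.24%, were higher without overlap. A change below 0 was found on 69.8% of host rows, against 46.6% of all rows and 53.7% of rows with exactly 1 symbol. The median log2 change of the host rows was -0.13, against 0.02 over all rows and -0.02 over rows with exactly 1 symbol. The median was -0.14 without DMSO replicate 1 and ruxolitinib replicate 3, and between -0.18 and -0.08 with each array left out. Host rows with a snoRNA had a median change of -0.16 (n = 86), and those with a miRNA and no snoRNA had -0.12 (n = 263). Only the TNFRSF1B row of the class passed the test over all rows. Unadjusted p-values under 0.05 were found on 48 lower and 10 higher of the 354 host rows. The 36176 rows with exactly 1 symbol had 2243 lower and 851 higher.

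**Figure D2:**
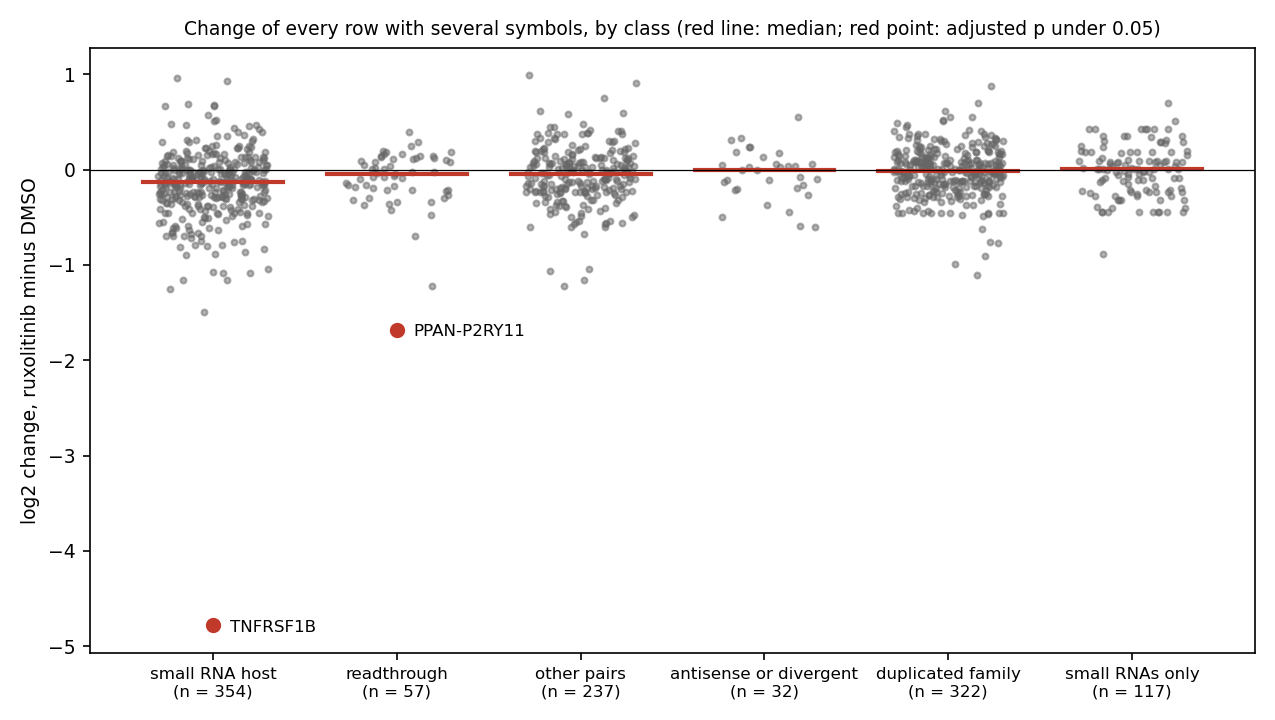
Log2 change, ruxolitinib minus DMSO, of each of the 1119 rows with several symbols (points, spread sideways at random) in the 6 classes, with the median of each class as a red line and the 2 rows past an adjusted p of 0.05 in red. The medians lie between -0.13 for host rows and 0.01 for rows of small RNAs only, and the TNFRSF1B row at -4.78 stands far below the rest.

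The host rows were also brighter, with a median signal of 9.79, against 5.23 for rows with exactly 1 symbol and 4.54 for all rows. The share of low rows moved with that level. At signals of 12 or more, 17.6% of 108 host rows were lower without overlap, against 17.4% of 2860 rows with exactly 1 symbol. From 8 to 10 the shares were 19% of 42 and 17.6% of 3352. From 10 to 12 they were 25% of 64 and 18.2% of 2709, from 6 to 8 they were 22.9% of 48 and 12.2% of 5159, and under 6 they were 14.1% of 92 and 4.68% of 22096. The shares were thus close at 12 or more and from 8 to 10, and that of host rows was larger in the other ranges. The difference between the sets was not tested.

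**Figure D3:**
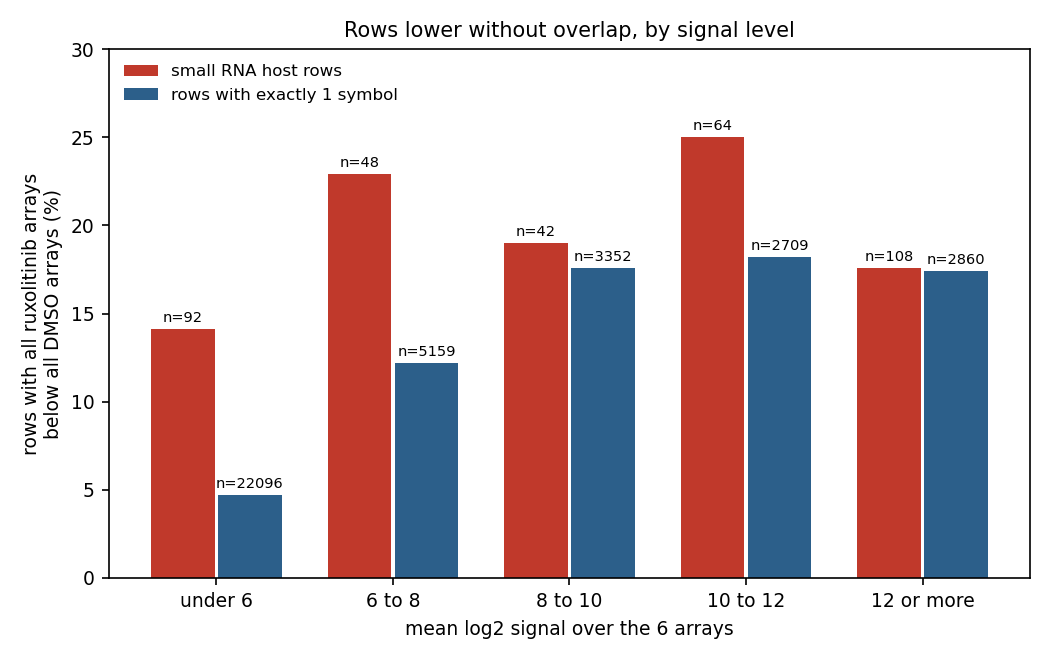
Share of rows, in percent, on which all 3 ruxolitinib arrays were below all 3 DMSO arrays, in 5 ranges of mean log2 signal, for host rows (red) and rows with exactly 1 symbol (blue); n above a bar is the number of rows. At 12 or more the shares are 17.6% and 17.4%, and under 6 they are 14.1% and 4.68%.

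Genes of ribosome production and known MYC targets were on 12 of the rows. Of these, 1 fell, that of PPAN, 0 rose, and 7 were lower with no overlap between the groups, with a median log2 change of -0.64 against 0.02 over all rows. Most of these rows were bright, and at signals of 12 or more 17.4% of rows with exactly 1 symbol were lower without overlap. The list was drawn up with earlier results of these data known, so its direction is not independent evidence. Beyond the rows of PPAN, BOP1, NME1 and WDR43, 3 more were lower without overlap, and none of them passed the test. EIF4A1, the RNA helicase of translation start and host of SNORD10, SNORA67 and SNORA48, had 15.08, 14.51 and 14.92 with ruxolitinib, against 15.49, 15.85 and 15.74 with DMSO (log2 difference -0.86). DKC1, dyskerin, the enzyme of the H/ACA snoRNA particle and itself the host of SNORA36A, SNORA56 and MIR664B, had 13.05, 12.52 and 12.94 with ruxolitinib, against 13.24, 13.72 and 13.71 with DMSO (log2 difference -0.72). TAF1D, a subunit of the factor that starts RNA polymerase I, differed by -0.49.

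The other 5 rows overlapped between the groups. NOP56, a core protein of C/D snoRNA particles, had 15.2, 14.79 and 14.55 with ruxolitinib, against 15.1, 15.51 and 15.57 with DMSO (log2 difference -0.55), with DMSO replicate 1 inside the ruxolitinib range. The snoRNA host SNHG12 had 11.95, 10.98 and 11.32 with ruxolitinib, against 11.24, 12.26 and 12.4 with DMSO (log2 difference -0.55), and there too DMSO replicate 1 was low. ODC1, the first enzyme of polyamine synthesis, differed by -0.32, SNHG1 by -0.09 and GAS5 by 0.23.

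**Figure D4:**
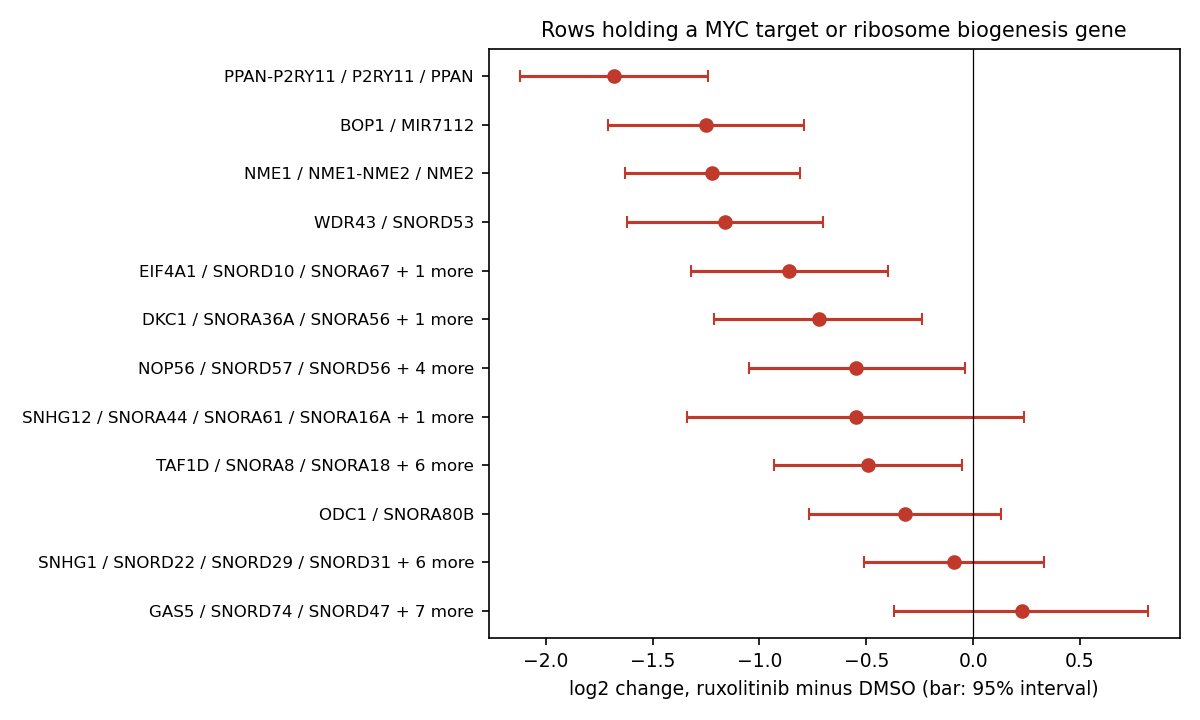
Log2 change, ruxolitinib minus DMSO (horizontal axis), with its 95% interval from limma, for the 12 rows that hold a MYC target or ribosome production gene, named by their first symbols. The changes run from -1.68 for PPAN to 0.23 for GAS5, and the intervals of the SNHG12, ODC1, SNHG1 and GAS5 rows include 0.

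A separate list of known snoRNA and miRNA host genes was on 25 rows, 3 of them shared with the list above. None passed the test over all rows, 3 were lower and 0 higher without overlap, where all rows had 5.06% lower and rows with exactly 1 symbol at signals of 12 or more had 17.4%, and the median log2 change was -0.16. The range was -1.49 for SNHG16 to 0.23 for GAS5. SNHG15, with SNORA9, had 7.62, 7.27 and 7.08 with ruxolitinib, against 7.88, 8.08 and 8.44 with DMSO (log2 difference -0.81, adjusted p 0.5, limma). EEF1B2, a translation elongation factor that hosts SNORA41, differed by -0.3, also without overlap. The miRNA hosts overlapped: MIR17HG, the precursor of the miR-17 to miR-92 cluster that MYC is known to induce, differed by -0.32, DLEU2, host of miR-15a and miR-16, by -0.18, MIRLET7BHG by -0.15 and MIR155HG by 0.12. The MIR17HG row had 7.23, 6.76 and 7.16 with ruxolitinib, against 7.27, 7.65 and 7.19 with DMSO.

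Chaperone genes were on 5 rows, 0 of which passed the test, with a median log2 change of -0.38. HSP90B1, the HSP90 protein of the endoplasmic reticulum, had 14.42, 13.86 and 13.63 with ruxolitinib, against 14.51, 15.28 and 15.6 with DMSO (log2 difference -1.16 ± 0.31, SE, adjusted p 0.501, limma). The groups were apart, but ruxolitinib replicate 1 almost reached DMSO replicate 1. TCP1, a subunit of the chaperonin that folds actin and tubulin, differed by -0.56, HSPA8 by -0.38, and the pair of rows shared by HSPA1A and HSPA1B by -0.37 and -0.17. Those last 4 overlapped between the groups.

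B-cell genes were on 3 rows and 0 passed. TNFRSF13C, the receptor for the survival factor BAFF, with MIR378I, had 6.7, 6.82 and 6.9 with ruxolitinib, against 7.61, 7.21 and 7.49 with DMSO (log2 difference -0.63 ± 0.18, SE, adjusted p 0.538, limma), and the groups were apart. CD22, an inhibitory receptor of B cells, with MIR5196, differed by -0.29, and the row of IGLL5 and lambda light chain segments by 0.36, both with overlap. Immunoglobulin and T-cell receptor segments were on 16 rows: 0 passed, 5 were higher without overlap and 0 lower, where all rows had 6.11% higher and 5.06% lower, and the median log2 change was 0.11. The highest was IGHV5-78 with MIR5195, at 7.53, 7.5 and 6.99 with ruxolitinib, against 6.2, 6.05 and 6.9 with DMSO (log2 difference 0.96, adjusted p 0.516, limma). The other 4 differed by 0.27 to 0.51 at signals of 3.72 to 7.97, on a table that runs from 1.99 to 19.9.

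Histone genes, made in bulk in S phase, were on 9 rows, with 0 passing, a median log2 change of 0.17 and overlap on every row. H4C14 and H4C15, which are near-identical copies, gave 0.37 and 0.36 on their 2 rows. KLRC4 with KLRK1, natural killer receptors, differed by 0.39, and the fetal globins HBG2 and HBG1 by 0.25 at signals of 4.05 to 4.56. Both rows overlapped between the groups and did not pass the test. With each array left out, the KLRC4 difference ran from -0.06 to 0.68. Of the 15 lists, 7 had no gene on a row with several symbols, among them the STAT5 targets, interferon-stimulated genes and cell cycle genes.

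Among readthrough rows, 1 of 57 fell and 0 rose. Lower without overlap were 6, or 10.5%, against 5.06% of all rows, and higher 0, against 6.11%, and the median log2 change was -0.05. Of rows with exactly 1 symbol, 8.96% were lower and 5.1% higher without overlap. After PPAN and NME1 came FAM47E with STBD1 (-0.7, at signals of 2.66 to 3.72) and TICAM2 with TMED7 (-0.42), both without overlap and without passing the test. Others were level: the row of FMC1, LUC7L2 and their readthrough differed by 0.01, and that of RNASEK and its readthrough by 0.08. The same windows before the start were listed for at least 2 genes on 29 of the 43 readthrough rows with 2 or more windows in RefSeq, as for NME1 and NME1-NME2.

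In duplicated families 0 of 322 rows passed. Unadjusted p-values under 0.05 were found on 9 lower and 7 higher of them, where all 135750 rows had 4176 and 3787. Without overlap 15 were lower and 15 higher, 4.66% each, against 5.06% and 6.11% of all rows, and the median log2 change was -0.01. The lowest p was that of NOMO3 and NOMO2, proteins of the endoplasmic reticulum membrane, at 12.86, 12.9 and 12.53 with ruxolitinib, against 13.54, 13.6 and 13.46 with DMSO (log2 difference -0.77 ± 0.17, SE, adjusted p 0.333, limma). This row and those of BOLA2 were chosen after their values were seen. BOLA2 and BOLA2B, copies of a gene for an iron-sulphur cluster protein, were on 2 rows of different brightness, with mean signals of 7.26 and 11.8 and log2 differences of -1.11 and -0.99. The best match between the start windows of a family's genes was at least 90% identical on 78 of the 139 rows where RefSeq had 2 or more, and fully identical on 66.

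Rows of small RNAs only also gave 0 of 117. Unadjusted p-values under 0.05 were found on 1 lower and 4 higher of them, where all 135750 rows had 4176 and 3787. Without overlap 4 were lower, or 3.42%, against 5.06% of all rows, and 15 higher, or 12.8%, against 6.11%, and the median log2 change was 0.01. The lowest p was that of MIR3118-2 and MIR3118-4, chosen after its values were seen, at 5.64, 6.01 and 5.94 with ruxolitinib, against 5.19, 5.25 and 5.04 with DMSO (log2 difference 0.7 ± 0.17, SE, adjusted p 0.427, limma). Both genes give the same mature miRNA, which lies at chr15:20832838-20832860 and chr15:21843793-21843815 and is shown with its seed in capitals.
hsa-miR-3118: uGUGACUGcauuaugaaaauucu
Of the 45 miRNA rows with every hairpin in RefSeq, 33 held identical hairpins and 36 identical mature sequences. The row of MIRLET7A1 and MIRLET7F1, let-7 genes, had 6.34, 6.52 and 6.52 with ruxolitinib, against 5.65, 6 and 6.18 with DMSO (log2 difference 0.51, adjusted p 0.783, limma). The rows of U1 spliceosomal RNA, the brightest of the class, differed by -0.15 and -0.09.

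The class with an antisense, intronic, overlapping or divergent suffix gave 0 of 32, with a median log2 change of 0. Without overlap between the groups 4 were lower and 4 higher, 12.5% each, against 5.06% and 6.11% of all rows. Rows with exactly 1 symbol had 8.96% lower and 5.1% higher without overlap. The other pairs gave 0 of 237, with 27 lower without overlap, or 11.4%, 14 higher, or 5.91% (5.06% and 6.11% of all rows), and a median log2 change of -0.05. The row of the 45S ribosomal RNA precursor RNA45SN5 with RNA5-8SN5 was among the brightest of these, at 16.93, 16.59 and 17.5 with ruxolitinib, against 17.41, 17.48 and 16.92 with DMSO (log2 difference -0.27), and the groups overlapped. Of the 6 rows that carry RNA5-8SN5 alone, 4 had identical values of 17.42, 17.23 and 17.29 with ruxolitinib, against 17.98, 17.8 and 17.75 with DMSO, a log2 difference of -0.53 without overlap (adjusted p 0.641, limma), and the other two differed by -0.28 and -0.34. The brightest host rows also differed little, TPT1 with SNORA31 by -0.05, EEF1G with MIR3654 by -0.04 and RPL28 with MIR6805 by -0.25. RefSeq placed EEF1G and MIR3654 on different chromosomes, so that row is a host row by its symbols only. In all, 3 host rows held genes of different chromosomes. Another 13 held genes of one chromosome whose spans did not overlap, among them that of MIR5195 with IGHV5-78.

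Most of these rows were the only measure of their genes. For 758 of the 1119 no symbol had a row of its own, and for host rows 314 of 354, or 88.7%, had no separate row of the host gene. Where the host had one, the joined row was usually the brighter: 31 of 40 own rows were dimmer, 19 of them by over 4 log2 units, with median signals of 10.9 on the joined row and 6.13 on the own row. HSP90B1 shows this. Its joined row had mean signals of 13.97 with ruxolitinib and 15.13 with DMSO, and its own row had 6.37 with ruxolitinib and 7.7 with DMSO, with log2 differences of -1.16 ± 0.31 and -1.34 ± 0.29 (SE). Changes on joined and own rows did not always share a direction. Of 267 rows with an own row of a symbol that is no small RNA, 184 had the same sign of change. On 10 of the 267 an own row had identical values, and the sign of a change near 0 carries little weight. Rows measure different probes, so their levels do not compare amounts of transcript.

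**Figure D5:**
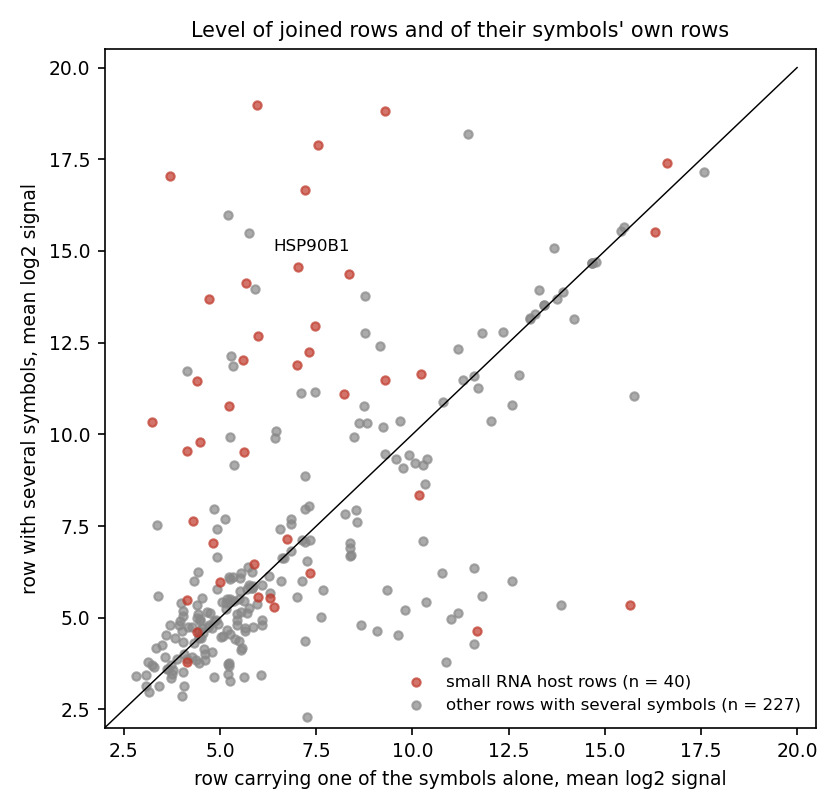
Mean log2 signal over the 6 arrays of a row with several symbols (vertical axis) against the brightest row that carries one of its symbols alone, small RNAs left out (horizontal axis), for 40 host rows (red) and 227 others (grey); the line marks equal signals. Of the 40 host rows 31 lie above the line, and 19 lie more than 4 log2 units above it.

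Some rows repeated each other. Values were identical on all 6 arrays to those of another row for 115 of the 1119 rows, or 10.3%, against 0.801% of the whole table. Of these, 74 held small RNAs only and 40 duplicated families, with 0 among host, readthrough and antisense rows, so the counts of those first classes include repeats of one measurement. The 50 sets of symbols that stood on more than 1 row, 109 rows in all, had log2 changes that differed within a set by a median of 0.06 and at most by 0.44.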

How the data were processed

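The authors deposited log2 signals, 1 value per transcript cluster and array, a unit read from their range. The submitters' processing notes name RMA, Transcriptome Analysis Console and Affymetrix Expression Console without versions or roles. The build of the clusters is not given in the sources used here. Symbols came from the platform annotation, updated through RefSeq for GRCh38.p14, which also gave biotypes and overlap of spans; strand and exons were not used here.

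The groups were compared row by row by a two-sided limma fit (limma 3.58.1, R 4.3.3, lmFit then eBayes, without covariates), tested on simulated data, with Benjamini-Hochberg adjustment over all 135750 rows and a threshold of 0.05. On these rows the standard error had a median of 0.199 log2 units, and the number of arrays limits the precision. Low signals cannot be told from background. The rule named every called row, those past 0.05 only over fewer rows, the 3 brightest of each class and the 3 of smallest p in each list. Rows outside it, such as those of WDR43, EIF4A1, DKC1, NOMO3, BOLA2, TIMP2 and further list members, were chosen with their values in view. The members and lists were chosen with earlier results of these data known. Whether replicates are separate cultures is not stated, so p-values measure only the spread between these samples, which may be technical. Replicate numbers were not treated as pairs, since deviations of same-numbered arrays correlated at -0.224, -0.0808 and -0.419. Alternatives covered the rows adjusted over, the threshold, the spread model, scaling, a filter on dim rows, array weights, the replicate number and arrays left out.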

Additional observations from a re-analysis of the deposited data

How the results depend on the processing

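Of the 2 calls among rows with several symbols, that of TNFRSF1B held in every alternative fitted except the ordinary linear model without moderation of the spread, in which 0 of all 135750 rows passed (adjusted p of the TNFRSF1B row 0.0659), although 103 rows with several symbols had an unadjusted p under 0.05. With an intensity trend, quantile normalization, the replicate block, or without DMSO replicate 1 and ruxolitinib replicate 3, 1 row passed and the readthrough class and the MYC and ribosome list had 0; the PPAN row's adjusted p was then 0.0552, 0.0682, 0.36 and 0.0882 (limma). Over the alternatives other than the adjustment over the 1119 rows alone, for which only counts are given, its adjusted p was 0.0102 to 0.461. Leaving out each array gave 1 to 2 calls, with 0 to 1 in the readthrough class and in that list. At a threshold of 0.10 there were 5 calls, 3 on host rows, 2 on readthrough rows, 2 in the MYC and ribosome list and 1 in the snoRNA and miRNA host list. Adjusted over the rows with a symbol, or over the 1119 rows, there were 6, with 4, 2, 3 and 1 in those same sets. Robust moderation, cyclic loess, median centring, a filter on dim rows and array weights gave 2. Without moderation 0 rows passed, in each of those sets too. Over the whole table the calls numbered 83 with the trend, 6 with the replicate block, 18 to 50 with an array left out and 27 without the 2 arrays named above, against 104. Rows lower without overlap numbered 93, 101 and 138 after quantile normalization, cyclic loess and median centring, alternatives chosen after seeing the data for this count, against 123. Neither called row changed direction in any alternative.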
